A study of Gallus gallus with 6 samples.

Results

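Cloacal skin of Ma-Huang chickens, a yellow-skinned broiler line, was profiled by RNA-seq in 6 birds, and 10 genes of T cells and cytotoxic lymphocytes were followed out of the 18315 genes listed for each library. The 10 genes are GNLY, GZMA and GZMK, which encode cargo of cytotoxic granules, and the T cell genes CD3E, CD3D, CD8A, CD4, CD5, LCK and ZAP70. They were found by their NCBI symbols and Gene IDs. The set was selected on earlier results of the same s_light against s_deep contrast, in which GNLY, GZMA and GZMK stood out. Differences of the 10 genes between the groups are therefore given as a description, with no test.

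The s_deep group held 3 birds with high cloacal yellowness (s_deep6402, s_deep6403 and s_deep7858, named by wing number), and the s_light group 3 birds with low yellowness (s_light6575, s_light6971 and s_light8275). The labels name no treatment or genotype. All birds were 120 days old and shared a feeding regime, and each gave 1 library from 1 piece of skin of 8 mm diameter with the subcutaneous fat scraped off. The labels give no sex. Levels are FPKM, reads scaled to the length of a gene's exons and to the depth of the library, so that levels of different genes can be compared. The number of reads behind a value is unknown. Pearson's r between libraries over all genes was 0.964 to 0.979 within groups and 0.955 to 0.973 between them.

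T cells recognise antigen through the T cell receptor, whose signal is passed on by the CD3 chains, by the kinases LCK and ZAP70 and, next to them, by the co-receptors CD4 or CD8. Cytotoxic T cells and natural killer (NK) cells kill targets by releasing granules, which hold pore-forming proteins, saposin-like lytic peptides and serine proteases called granzymes. Skin holds resident lymphocytes of both kinds between its keratinocytes and in the dermis. The skin markers KRT5 and KRT14 were read at 616 FPKM or more in every library, and the 10 T cell markers looked for were all above 0 FPKM in every library.

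The granule genes GNLY, GZMA and GZMK had lower levels in each low-yellowness library than in any high-yellowness library, while the levels of the 7 T cell genes overlapped between the groups. For 3 of the 10 genes (GNLY, GZMA and GZMK) every s_light library was below every s_deep library, against 5.48% of the 15900 genes tested. None of the 10 was higher in every s_light library, against 5.36% of all genes tested. None met the call rule, an FDR of 0.05 or less together with a change of 1 log2 unit or more (limma, 0.044% of all genes tested), and 3 had an unadjusted p under 0.05 in the direction of lower s_light, against 2.96% of all genes tested. The contrast had served to select the genes, so nothing is read from these counts. The paper lists GNLY and GZMA among its most differentially expressed genes, lower in s_light. Its list comes from these same libraries and is no separate evidence. The paper thus called both genes, whereas neither met the call rule here. It used its own thresholds, and its methods name a count model, unlike the fit to FPKM here. In bulk skin, fewer cells of a type and less RNA per cell cannot be told apart.

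**Figure D1:**
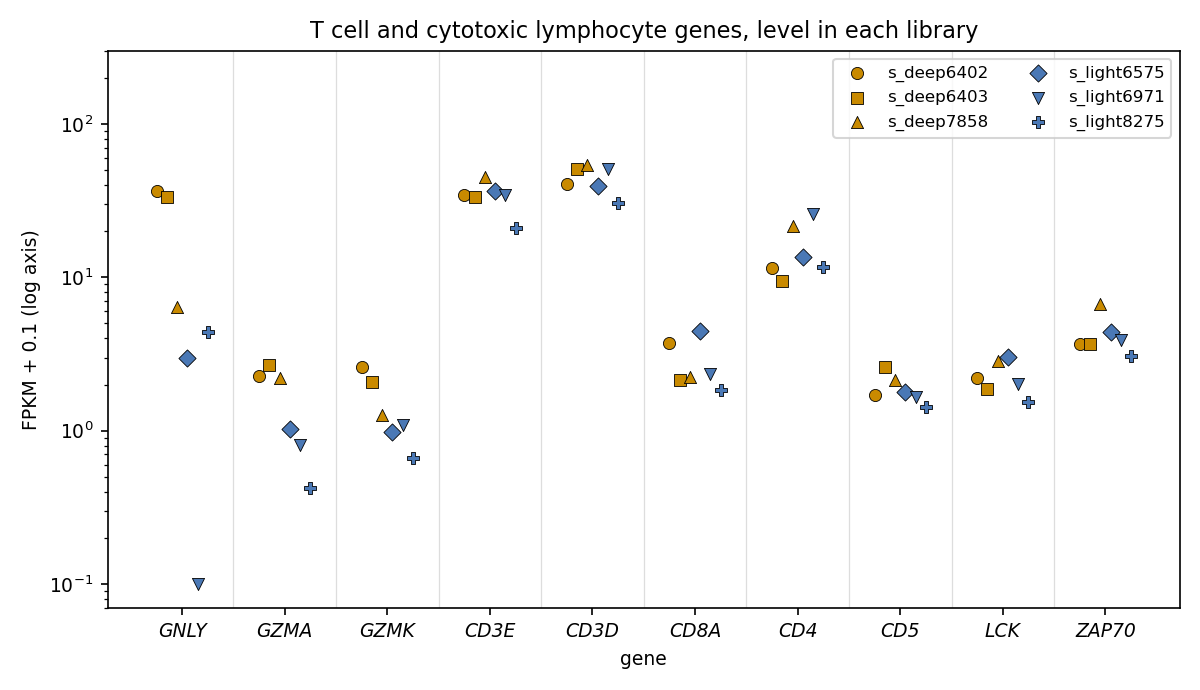
Level of each of the 10 genes (FPKM + 0.1, log axis) in each library, with 1 point per library, s_deep in ochre and s_light in blue. GNLY, GZMA and GZMK have every s_deep point above every s_light point, and the points of the other 7 genes are mixed.

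GNLY (Gene ID 693257) is the chicken NK-lysin gene, related to human granulysin, a membrane-lysing peptide of cytotoxic granules. Its FPKM values were 36.39 in s_deep6402, 33.41 in s_deep6403 and 6.32 in s_deep7858. They were 2.9 in s_light6575, 0 in s_light6971 and 4.28 in s_light8275. The groups did not overlap, but s_deep7858 was far closer to the s_light libraries than to its own group: s_deep6402 and s_deep6403 had a mean 5.52 times its level, and its level was 2.64 times the s_light mean. The group means differed 10.6-fold. The log2 fold change of s_light against s_deep was -4.18 (standard error 1.45) on the log2(FPKM + 0.1) scale and leaned on s_light6971, which is listed at 0. Without s_light6971 it was -2.45.

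A POLD2 entry lies next to GNLY in the chicken annotation (assembly GRCg7b). This entry (Gene ID 107057377), a DNA polymerase delta subunit, had between 13.38 and 22 FPKM in 5 libraries and 1.34 FPKM in s_light8275. A second entry under the name POLD2 was highest in s_light8275 (18.78 FPKM), followed by s_light6971 (3.43 FPKM), and stayed at or under 0.41 FPKM elsewhere. The entries were thus in opposite order in s_light8275. The bearing of this on GNLY, which has a single entry here, was not tested.

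GZMA (Gene ID 395108) encodes granzyme A, a trypsin-like protease of cytotoxic granules in mammals. Its FPKM values were 2.16, 2.6 and 2.12 in the s_deep libraries, in the order above, against 0.92, 0.71 and 0.32 in the s_light libraries. The s_deep libraries lay close together and all of them were over the highest s_light library by more than the spread within either group. Mean FPKM was 2.29 ± 0.266 (SD, n = 3) for s_deep and 0.65 ± 0.304 (SD, n = 3) for s_light. The log2 fold change was -1.76 (standard error 0.38).

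GZMK (Gene ID 426168) encodes granzyme K, a second trypsin-like granzyme, and follows GZMA directly on the Z chromosome. Its FPKM values were 2.49, 1.97 and 1.17 in s_deep against 0.88, 0.99 and 0.56 in s_light. The gap between the groups was narrow here, since s_deep7858 was just above s_light6971. Mean FPKM was 1.88 ± 0.665 (SD, n = 3) for s_deep and 0.81 ± 0.223 (SD, n = 3) for s_light. The log2 fold change was -1.09 (standard error 0.36).

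The signalling chains of the T cell receptor were the most abundant of the 10 genes. CD3E (Gene ID 396062), the epsilon chain, had FPKM values of 34.33, 33.48 and 45.16 in s_deep against 36.61, 34.44 and 20.72 in s_light. CD3D (Gene ID 396518), its neighbour in the genome and a further CD3 chain, had FPKM values of 40.68, 50.86 and 53.93 in s_deep against 39.04, 50.79 and 30.28 in s_light. The groups overlapped for both chains, which were highest in s_deep7858 and lowest in s_light8275. The log2 fold change was -0.33 for CD3E (standard error 0.24) and -0.30 for CD3D (standard error 0.21). CD3D exceeded CD3E in every library, by a factor of between 1.07 and 1.52. By mean FPKM, CD3D was above 90.4% and CD3E above 86.9% of the genes read above 0. Mean FPKM over the 6 libraries was 44.3 for CD3D, 34.1 for CD3E, 15.5 for CD4, 13.9 for GNLY, 4.14 for ZAP70, 2.70 for CD8A and 2.15 for LCK, and under 2 for CD5, GZMA and GZMK. In this order the library values of each gene overlapped those of the next.

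The levels of both co-receptors overlapped between the yellowness groups. CD4 (Gene ID 395362), which binds MHC class II on helper T cells, had FPKM values of 11.46, 9.41 and 21.53 in s_deep against 13.42, 25.72 and 11.56 in s_light. CD8A (Gene ID 403158), a chain of the MHC class I co-receptor of cytotoxic T cells, had FPKM values of 3.63, 2.04 and 2.15 in s_deep against 4.38, 2.25 and 1.73 in s_light. CD4 was highest in s_light6971 and s_deep7858, 1 library of each group, and CD8A was highest in s_light6575 and s_deep6402, again 1 of each. The log2 fold changes were 0.26 for CD4 (standard error 0.39) and 0.03 for CD8A (standard error 0.39). CD4 exceeded CD8A in all 6 libraries, by a factor of between 3.06 in s_light6575 and 11.4 in s_light6971 (median 5.65). CD8BP, a CD8 beta chain entry, was read at no more than 0.8 FPKM and was listed at 0 in s_light8275.

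CD5, LCK and ZAP70 were read at low levels and overlapped as well. CD5 (Gene ID 395757), a surface receptor that dampens T cell receptor signals, had FPKM values of 1.61, 2.49 and 2.03 in s_deep against 1.69, 1.56 and 1.33 in s_light. Here only s_light6575 reached into the range of s_deep. LCK (Gene ID 396460), the Src-family kinase bound to CD4 and CD8, had FPKM values of 2.09, 1.78 and 2.74 in s_deep against 2.93, 1.92 and 1.43 in s_light. ZAP70 (Gene ID 420086), the kinase recruited to phosphorylated CD3 chains, had FPKM values of 3.6, 3.58 and 6.56 in s_deep against 4.32, 3.81 and 2.99 in s_light. The highest ZAP70 level was that of s_deep7858, and the other s_deep libraries lay inside the s_light range. The log2 fold changes were -0.38 for CD5 (standard error 0.26), -0.11 for LCK (standard error 0.32) and -0.25 for ZAP70 (standard error 0.29).

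Over the 7 T cell genes the log2 fold change ran from -0.38 to 0.26 with a median of -0.25, beside a median of -0.02 over all genes tested. For the 3 granule genes the median was -1.76. Of the 7 T cell genes, 6 were lowest in s_light8275. That library also had the lowest summed FPKM of 6 leukocyte genes (PTPRC, LCP1, ITGB2, LAPTM5, ARHGDIB and RAC2), 171 FPKM, against between 206 and 309 FPKM in the other libraries.

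**Figure D2:**
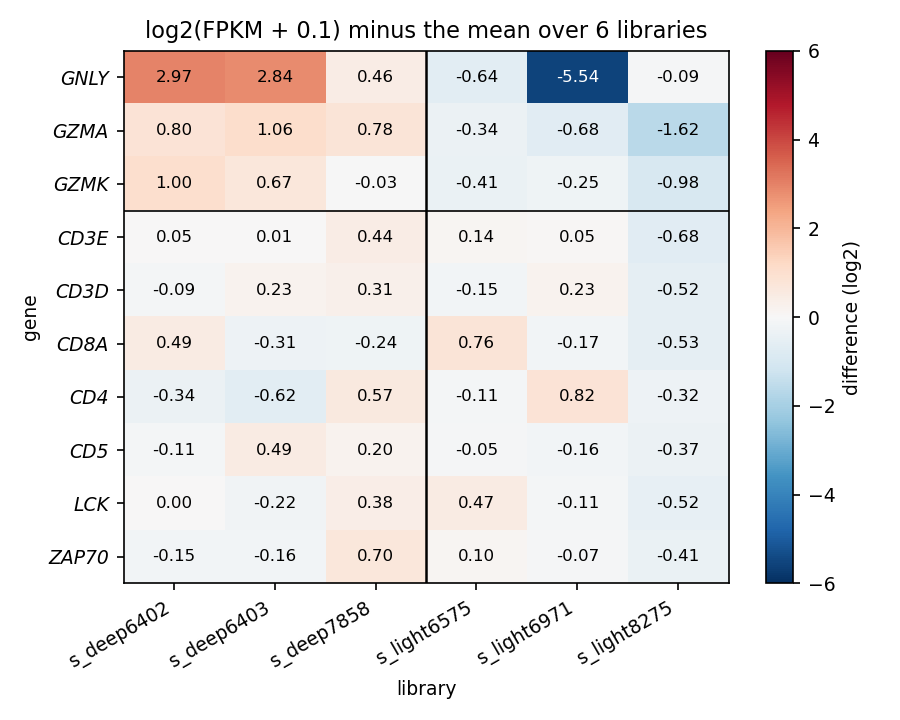
Difference of log2(FPKM + 0.1) from the mean over the 6 libraries, for the 10 genes (rows) in each library (columns), with red above and blue below the mean. Each of the 3 granule genes is higher in every s_deep column than in every s_light column, while 6 of the 7 T cell genes are lowest in s_light8275.

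Relative to the T cell receptor, the 3 granule genes behaved differently from each other. GNLY was read at 106, 99.8 and 14 FPKM per 100 FPKM of CD3E in s_deep6402, s_deep6403 and s_deep7858. In the s_light libraries it was 7.92, 0 and 20.7 FPKM per 100 FPKM of CD3E. On this scale the groups overlapped, because s_light8275 was above s_deep7858. GZMA was read at 6.29, 7.77 and 4.69 FPKM per 100 FPKM of CD3E in s_deep and at 2.51, 2.06 and 1.54 in s_light. Its groups thus stayed apart. GZMA was selected on this contrast, and the share of all genes on this scale is not given, so nothing is read from that. GZMK stood at 7.25, 5.88 and 2.59 FPKM per 100 FPKM of CD3E in s_deep and at 2.4, 2.87 and 2.7 in s_light. Its s_deep7858 value thus fell inside the s_light range. Per 100 FPKM of the mean of CD3E and CD3D it did not, with 2.36 in s_deep7858 against at most 2.33 in s_light, so for GZMK the overlap depended on the base.

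With the summed leukocyte genes as the base in place of CD3E, 2 of the 10 genes had groups without overlap, GZMA and GZMK. Both were selected on this contrast, and the share of all genes under this division is not given, so nothing is read from the count. For GZMA the values were 10.5, 8.42 and 7.29 FPKM per 1000 FPKM of leukocyte genes in s_deep and 3.85, 2.88 and 1.88 in s_light. For GZMK the gap shrank to 4.02 in s_deep7858 against 4.01 in s_light6971, which is within the rounding of FPKM to 2 decimals. GNLY overlapped again, with 21.7 in s_deep7858 and 25.1 in s_light8275.

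**Figure D3:**
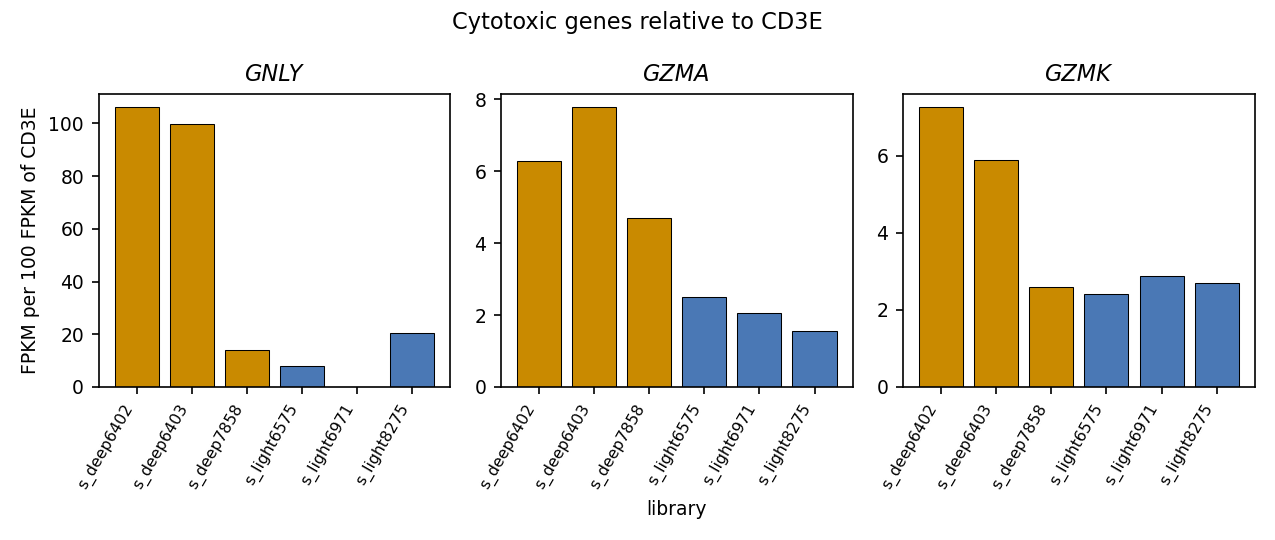
FPKM of GNLY, GZMA and GZMK per 100 FPKM of CD3E (bars, 1 per library, axes from 0), s_deep in ochre and s_light in blue. GZMA is higher in all 3 s_deep libraries, whereas the GNLY and GZMK bars of s_deep7858 (14 and 2.59) are among those of s_light.

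GZMA and GZMK are Z-linked, and in chickens females carry a single Z and a W chromosome while males carry no W. Of 29 W genes whose mean reached 1 FPKM, 21 were under 1 FPKM in s_deep6402 and 22 in s_deep6403, against at most 1 in any other library. The mean log2(FPKM + 0.1) of the W genes was -1.05 in s_deep6402 and -1.36 in s_deep6403 and between 3.38 and 3.62 in the other 4 libraries. HINTW, a W gene, had 0.06 and 0.17 FPKM in s_deep6402 and s_deep6403 and between 122 and 206 FPKM elsewhere. By these W genes, s_deep6402 and s_deep6403 had the pattern of males and the other 4 libraries that of females, though no label gives the sex. Thus s_deep7858 was the only s_deep library with W genes read like those of s_light.

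Genes of the Z chromosome moved in the same libraries. The median ratio of 533 Z genes to their own geometric mean over the libraries was 1.27 in s_deep6402 and 1.29 in s_deep6403, and between 0.850 and 0.931 in the other 4. The median log2 fold change of these Z genes was -0.37, and for 100 of them (18.8%) every s_light library was below every s_deep library. GZMA reached 1.75 and 2.09 times its geometric mean in s_deep6402 and s_deep6403, and also 1.72 times in s_deep7858, where the Z median was 0.895. No other of the 533 Z genes had a log2 fold change as low as that of GZMA, and 5, GZMK included, were at or below that of GZMK. Both granzymes were selected on this contrast, so nothing is read from these ranks. For GZMK the ratio was 1.99 and 1.59 in s_deep6402 and s_deep6403 and 0.978 in s_deep7858.

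Dividing by the Z median of each library left both granzymes without overlap. Both were selected on this contrast, and the share of Z genes or all genes under this division is not given. Nothing is therefore read from the lack of overlap, and the part of the Z dosage was not tested. GZMA then had scaled FPKM values of 1.70, 2.01 and 2.37 in s_deep against 1.08, 0.762 and 0.367 in s_light. GZMK had scaled FPKM values of 1.96, 1.52 and 1.31 in s_deep against 1.04, 1.06 and 0.642 in s_light. Within s_deep, the spread of GZMK was smaller on this scale than before. That of GZMA was larger, at 1.70 to 2.37 against 2.12 to 2.6 as deposited.

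**Figure D4:**
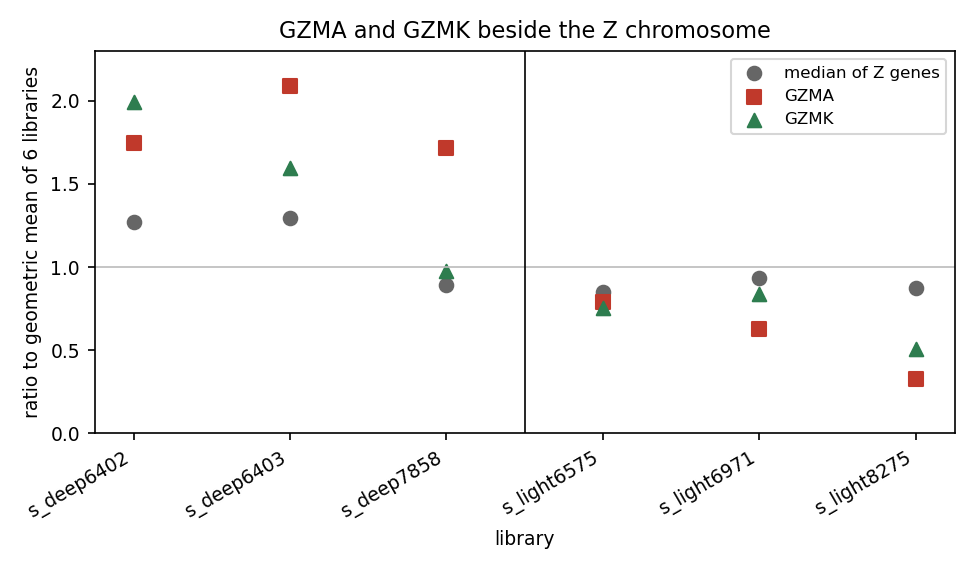
Ratio of GZMA (red squares), GZMK (green triangles) and the median Z gene (grey circles) to the geometric mean over the 6 libraries, by library. The Z median is 1.27 and 1.29 in s_deep6402 and s_deep6403 and under 1 elsewhere, and GZMA is at 1.72 in s_deep7858, where the Z median is 0.895.

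Among the 4 libraries with W genes read, s_deep7858 can be set beside the 3 s_light libraries without the difference in W genes, though 1 library against 3 allows no test. It was above every s_light library for 7 of the 10 genes (GNLY, GZMA, GZMK, CD3E, CD3D, CD5 and ZAP70), against 25.8% of all genes tested. GNLY, GZMA and GZMK were selected on a contrast that includes s_deep7858, so nothing is read from this count. The summed leukocyte genes were also higher in s_deep7858, at 291 FPKM against at most 247 FPKM in s_light. GZMA was 3.26 times the s_light mean there, GNLY 2.64 times, ZAP70 1.77 times, CD3E 1.48 times and GZMK 1.44 times. The excess of GZMK was thus of the size seen for CD3E. With the W gene score as a covariate in the fit, the log2 fold change was -2.76 for GNLY, -1.64 for GZMA and -0.52 for GZMK. The T cell genes stood at -0.81 for ZAP70, -0.59 for CD3E, -0.43 for CD3D and for LCK, -0.40 for CD4, -0.37 for CD5 and 0.21 for CD8A. In that fit GZMK was thus within the range of the T cell genes, and GNLY and GZMA were below all of them. The granule genes were selected on this contrast, so nothing is read from these places. For GNLY, the ratio and the fit both leaned on s_light6971, listed at 0 FPKM. The other s_light libraries had 2.9 and 4.28 FPKM of GNLY, against 6.32 FPKM in s_deep7858. The W covariate was not fitted without s_light6971, so how far the place of GNLY below the T cell genes rests on that library is not known. The W score sets s_deep6402 and s_deep6403 apart from the rest, so the group term rests largely on s_deep7858. The fit therefore largely repeats the comparison of s_deep7858 with s_light and adds no separate evidence. For s_deep6402 and s_deep6403, high yellowness and the absence of W reads cannot be told apart. This covers their GNLY levels, the highest read, at 36.39 and 33.41 FPKM.

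How closely the 3 granule genes rose and fell together depended on the measure. Over the 6 libraries, log2(FPKM + 0.1) correlated with Pearson's r = 0.88 between GZMA and GZMK, 0.60 between GNLY and GZMA and 0.59 between GNLY and GZMK. Spearman's rank correlation was 0.89, 0.77 and 0.77 for the same pairs. The closest T cell pairs were CD3E with ZAP70 and CD3E with LCK (r = 0.84 for both). Of the pairs of a granule gene and a T cell gene, GZMA was closest to CD5 (r = 0.82), CD3E (r = 0.72) and CD3D (r = 0.69), all above its r with GNLY. By rank this order did not hold. Spearman's correlation of GZMA was 0.83 with CD5, 0.77 with GNLY, 0.60 with CD3D and 0.09 with CD3E. For GZMK the highest such value was 0.58 with CD5. Between GNLY and CD3E r was 0.01, and between GNLY and CD4 it was -0.79. These values describe 6 libraries that share groups and W status, and they carry no test.

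The genes that tracked GNLY and CD3E best were picked out of 11786 named genes whose mean reached 1 FPKM. For GNLY they were ABR, KBTBD13, WWP2, RFC5 and TMEM59, with r between 0.977 and 0.993 over the 6 libraries, and for CD3E they were MRPS25, ZMYND12, NAA38, FAM78A and ASAP2, with r between 0.973 and 0.990. None of these 10 is in the T and NK cell lists. Within those lists, GNLY was best tracked by SH2D1B (r = 0.92), an adaptor of NK cell receptors of the SLAM family, and by BTLA (r = 0.85), an inhibitory receptor of lymphocytes. ABR, KBTBD13, WWP2, RFC5, TMEM59, SH2D1B and BTLA were all lowest in s_light6971. There GNLY is listed at 0 FPKM, so the pseudocount sets its log2 value and weighs on these r values. Among the list genes that tracked CD3E closely were LCP2 (r = 0.94), the adaptor SLP-76, and CCR7 (r = 0.92), a homing receptor for lymph nodes in mammals.

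The wider T and NK cell machinery was read from 7 lists with 97 further genes, of which 68 were matched and 66 reached the mean required for the fit. None of the 66 met the call rule (limma, lowest adjusted p = 0.271), and 5 had an unadjusted p under 0.05, all lower in s_light, a direction and threshold met by 2.96% of all genes tested. Groups without overlap were seen for 7 genes lower in s_light (10.6%, against 5.48% of all genes tested) and 1 gene higher in s_light (against 5.36%). The median log2 fold change was -0.19, with 48 of the 66 below 0. Over all genes tested the median was -0.02, and the share below 0 is not given. The lists were chosen with earlier results of these data known, so nothing is read from these counts or from those by list below. The higher gene was CD2, an adhesion receptor of T cells, which was read at no more than 0.62 FPKM.

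Among the other effector genes, PRF1, the pore-forming perforin, had FPKM values of 0.52, 0.25 and 0.51 in s_deep against 0.33, 0.21 and 0.16 in s_light. GZMM, a further granzyme, had FPKM values of 2.32, 0.94 and 2.37 in s_deep against 2.8, 0.94 and 0.92 in s_light. For PRF1, s_light6575 lay inside the range of s_deep, and for GZMM it was the highest library. XCL1, a chemokine released by activated CD8 and NK cells, had FPKM values of 5.09, 4.21 and 2.47 in s_deep against 4.41, 2.39 and 1.88 in s_light. Of 8 such effectors tested, none had groups without overlap, and with so few genes the 5.48% of all genes tested leaves little to read from that. The log2 fold change was below 0 for 7 of them (median -0.38). The exception in sign was FASLG, the ligand of the death receptor FAS, with a log2 fold change of 0.26. IFNG, interferon gamma, did not exceed 0.85 FPKM.

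Among the genes without overlap were receptors and adaptors of lymphocytes, which also fill much of the lists. SH2D1B had FPKM values of 2.83, 5.92 and 3.48 in s_deep against 1.89, 0.5 and 1.53 in s_light (log2 fold change -1.67, standard error 0.50, adjusted p = 0.607, limma). SH2D2A, an adaptor of activated T cells, had FPKM values of 13.61, 13.14 and 15.44 in s_deep against 7.27, 9.26 and 8.51 in s_light (log2 fold change -0.75, standard error 0.15, adjusted p = 0.271, limma). BTLA had FPKM values of 2.15, 2.33 and 1.68 in s_deep against 0.99, 0.83 and 0.94 in s_light (log2 fold change -1.07, standard error 0.25, adjusted p = 0.384, limma). For SH2D2A, s_deep7858 was the highest library, and for BTLA it was the lowest of s_deep but still above every s_light library. Others were IL2RB, a chain of the receptors for interleukins 2 and 15 (log2 fold change -0.52), IL7R, the receptor for interleukin 7 (-0.52), and S1PR1, a receptor that guides lymphocytes out of tissue and is abundant in endothelium (-0.31), with adjusted p between 0.754 and 0.828 (limma). IL7R is Z-linked, and divided by the Z median its levels overlapped, with 5.06 to 6.84 FPKM in s_deep and 4.06 to 6.74 FPKM in s_light.

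Of 15 transcription factors tested, 5 had a log2 fold change below 0 and the median was 0.15. None had groups without overlap, a count read against 5.48% of all genes tested lower in every s_light library and 5.36% higher. EOMES, a T-box factor of cytotoxic lymphocytes, had FPKM values of 1.33, 0.39 and 0.52 in s_deep against 0.43, 0.22 and 0.29 in s_light. TBX21, its relative in type 1 helper and NK cells, had FPKM values of 5.83, 6.63 and 10.66 in s_deep against 9.51, 6.88 and 5.69 in s_light. TBX21 was thus highest in s_deep7858, as ZAP70 and CD3E were. GATA3, which keratinocytes also express, was read at between 62.13 and 85.08 FPKM.

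**Figure D5:**
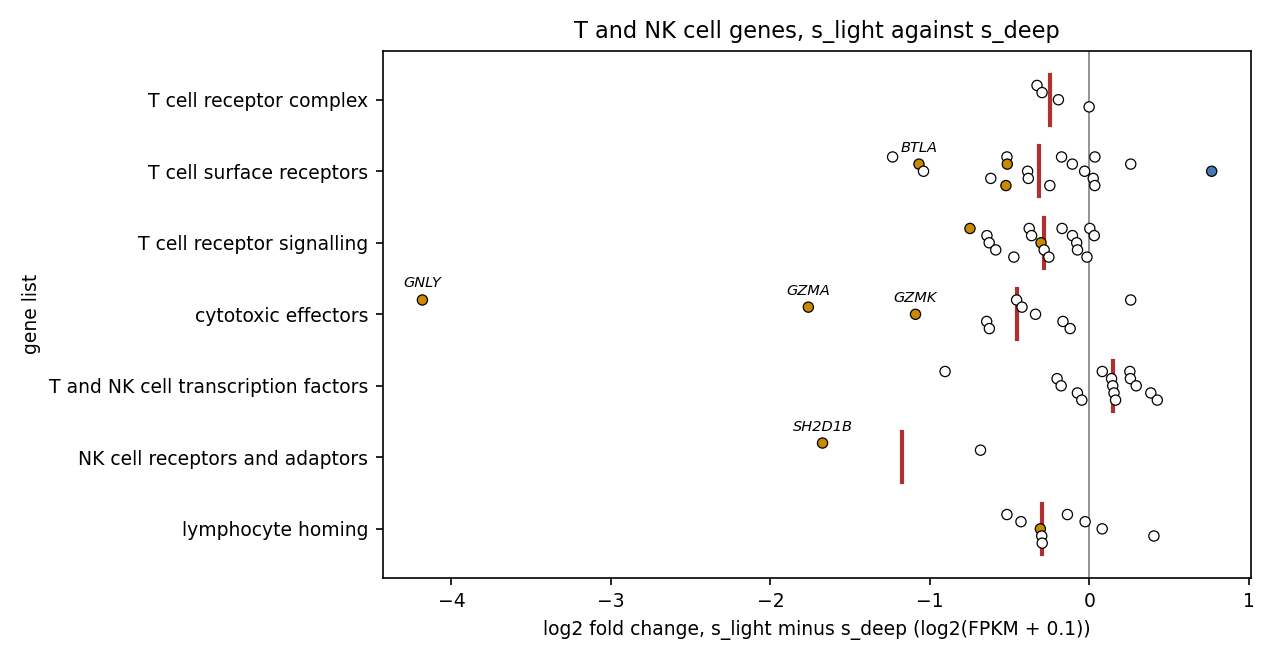
Log2 fold change of s_light against s_deep for the 76 tested genes of the T and NK cell lists, the 10 genes included (points), by list, with the list's median as a red bar. Ochre points had every s_light library below every s_deep library, the blue point (CD2) the reverse, and white points overlapped. GNLY lies farthest from 0 at -4.18, and most other genes lie between -1 and 0.5.

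Markers of other cells also differed between the pieces of skin, and their part in the values above was not tested. Summed FPKM of 11 macrophage and dendritic cell markers was between 2781 and 3378 in s_deep and between 1975 and 2623 in s_light, without overlap. Most of that sum was CD74, an MHC class II chaperone, at 2399 to 2755 FPKM against 1713 to 2272 FPKM, and 4 of the 11 markers (C1QA, C1QC, CD74 and CTSS) were lower in every s_light library. Of all genes tested, 5.48% were lower in every s_light library and 5.36% were higher, which applies to all single markers here. Summed smooth muscle markers were higher in every s_light library, at 2849 to 5266 FPKM against 1314 to 2609 FPKM, as were 4 of the 5 genes singly, ACTA2 being the exception. The sum of 5 adipocyte markers was also higher, at 2184 to 2269 FPKM against 1517 to 1819 FPKM, but only FABP4 and PLIN1 were so singly, and ADIPOQ had 814 to 1171 FPKM in s_deep against 581 to 924 FPKM in s_light. The sum of 6 erythroid markers was higher, at 44.7 to 56.8 FPKM against 21.9 to 43.1 FPKM, while each of the 6 genes overlapped. The 10 T cell markers, of which 7 are among the genes above, overlapped, at 107 to 147 FPKM in s_deep and 78.5 to 132 FPKM in s_light. The leukocyte, B cell, thrombocyte, keratinocyte, fibroblast and endothelial sums overlapped too. Within the overlapping lists, LCP1 (leukocytes) and KDR (endothelium) were singly lower in every s_light library. CD2 (T cells) and ITGA2B (thrombocytes) were singly higher. For heterophils, the avian granulocytes, only CSF3R of 8 markers was matched.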

How the data were processed

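Per the methods, the authors filtered single-end reads of poor quality, aligned the rest to the chicken assembly Gallus_gallus-5.0 with TopHat (the submitters' processing notes name HISAT2 2.0.4, Bowtie2 2.2.5 and RSEM 1.1.12) and deposited FPKM per NCBI Gene ID, rounded to 2 decimals. Which program assigned reads shared between similar genes is not given in the sources used here, and the methods and the labels name different sequencers.

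For 83.5% of the 18315 IDs, RefSeq (assembly GRCg7b) gave a symbol, and it also gave the Z and W placements and gene order. No coordinates are printed, since the builds differ. Genes whose mean reached 0.1 FPKM (15900) were fitted with limma 3.58.1 in R 4.3.3 (intensity trend) on log2(FPKM + 0.1), all 6 libraries, no covariate, with Benjamini-Hochberg adjustment. The pseudocount understates changes of low genes. The methods name a count model, for which the deposited values hold no counts. The fit was checked on simulated data with independent noise drawn from its own variances. These held no W or Z pattern and no outlying library, so the check does not cover such features. The 10 genes and all lists were chosen with earlier results of these data known. Further genes were named if a list gene passed the threshold, or had groups without overlap and a mean of at least 0.5 FPKM; the 5 genes most correlated with GNLY and with CD3E were named too. Other list genes with values were named after these were seen, and some genes that the rule names are not reported here. Birds are the replicates. Alternatives were pseudocounts, filters, scalings, no trend, a W covariate, W and Z genes left out and each library left out. Division by the Z median or by leukocyte genes and the W-read libraries alone were added after seeing the data. Python 3.11.15, numpy 2.4.6, pandas 2.3.3 and scipy 1.17.1 were used for the rest.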

Additional observations from a re-analysis of the deposited data

How the results depend on the processing

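The number of genes past the threshold, 7 among all tested, was 11 with a pseudocount of 1, 12 with median-of-ratios scaling and 3 with the W gene score as a covariate. With each library left out in turn it ran from 0 to 69, the highest without s_deep7858. None of the 66 further T and NK cell genes passed under any alternative. The number of the 10 genes with every s_light library below every s_deep library, 3 as deposited, ran from 3 to 5 with each library left out (5 without s_deep6402, where CD3D and CD5 were added). Groups stand apart more readily with fewer libraries, and the share over all genes is not given for these settings, so nothing is read from the rise. The number was 1 without W and Z genes, which removes GZMA and GZMK. With the W-read libraries alone, where s_deep is 1 library, it was 7, against 25.8% of all genes tested. GNLY, GZMA and GZMK are among these and were selected on this contrast, so nothing is read from that number either.

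The log2 fold changes of GNLY, GZMA and GZMK stayed below 0 in every alternative that fitted them, from -5.30 to -2.45, from -2.03 to -1.01 and from -1.38 to -0.52. These genes were selected on this contrast and their groups did not overlap. Leaving out a library or changing the pseudocount, filter or trend could therefore not turn their sign, and nothing is read from it. The lowest size for GNLY came without s_light6971, that for GZMA with a pseudocount of 1 and that for GZMK with the W covariate. Of the 7 T cell genes, CD8A, CD4, LCK and ZAP70 changed sign in some alternative, CD4 from 0.26 to -0.40 with the W covariate. With 3 birds per group, no read counts and 2 s_deep libraries that differ in W genes from all others, small differences of genes near 1 FPKM cannot be resolved.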
